A study of Mus musculus with 18 samples.

Results

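The cultures described here are DKI monocyte-derived cells (MDCs) on day 3 and day 6 of GM-CSF stimulation, and the question is which genes differed between the 2 days within this genotype. DKI mice carry a double knock-in in Stat5a and Stat5b that changes the N-domains of both STAT5 proteins, so that STAT5 dimers still form but cannot join into tetramers. All genes with a mean RPKM (reads of a gene scaled to its transcript length and to the mapped reads of the library) above 2 on day 3 or day 6 in DKI cultures were taken, which gave 9540 of the 20298 genes in the table. Of these, 9219 were above the limit on both days, 162 on day 3 alone and 159 on day 6 alone. At the limit itself, the higher of the 2 means was 2.0008 RPKM for Prdm10, which was kept, and 1.9991 RPKM for Metap1d, which was not. A gene that passed on 1 day alone had to differ between the days to do so.

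GM-CSF is a growth factor that signals through a receptor made of CSF2RA and CSF2RB, activates JAK2 and phosphorylates STAT5A and STAT5B, which then bind DNA at GAS motifs. Monocytes cultured with GM-CSF give rise to a mixture of dendritic-like cells (moDCs), which take up antigen and present it on MHC class II, and macrophage-like cells, which clear debris and microbes. Tetramers form where STAT5 dimers bind neighbouring GAS motifs and touch through their N-domains.

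The study compared WT and DKI cells on the C57BL/6 background (C57BL/6J for the DKI mice in the methods) before culture and after 3 and 6 days of GM-CSF, with 3 libraries in each of 6 groups and 18 in all. Ly6C+ CCR2+ monocytes were enriched from bone marrow by removing other cells, cultured in 20 ng/mL GM-CSF, which was added again on days 3 and 6, and detached with accutase before RNA was prepared. The 6 DKI libraries of days 3 and 6 are compared here, and the 6 WT libraries of the same days, which had intact Stat5 genes and the same GM-CSF treatment, are used beside them. The knock-in is present in every cell of the mouse, the cultures were not sorted before RNA was made, and the labels do not say which libraries came from the same animals. The study describes 3 independent experiments. In bulk RNA, fewer cells of a type and less RNA per cell cannot be told apart.

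Liver is given as the tissue in the labels, but bone marrow in the methods. Of 8 hepatocyte markers, 7, including Alb, Apoa1 and Ttr, were under 0.1 RPKM in all 6 DKI libraries, and the remaining one was Trf, the transferrin gene, at 70.2 to 779 RPKM. Summed levels of the T and NK cell markers were 0.75 to 61.3 RPKM, of the erythroid markers 5.99 to 14.9 RPKM, of the stromal markers 0.85 to 36.4 RPKM and of the endothelial markers 14.7 to 33.6 RPKM, while the osteoclast markers, which macrophages share, summed to 262 to 548 RPKM. The plasmacytoid dendritic cell markers summed to 131 to 1250 RPKM, with Bst2, which interferon also induces, at 116 to 1231 RPKM, and Siglech, Ccr9 and Klk1 under 0.1 RPKM. All 12 defining monocyte and macrophage markers were present. Adgre1, which encodes F4/80, was at 438, 369 and 417 RPKM on day 3, against 429, 378 and 397 RPKM on day 6 in replicates 1, 2 and 3. Stat5a was at 9.37, 13.4 and 14.4 RPKM on day 3, against 9.22, 14.4 and 11.3 RPKM on day 6, and Stat5b was at 14.9, 12.6 and 16.5 RPKM and then at 12.8, 13.3 and 14.4 RPKM. Both targeted genes were thus transcribed on both days. RPKM values cannot show the substitutions.

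The replicate number separated the DKI libraries more than the day did. Of the sum of squares of all 9540 genes on the log2 scale, 69.5% went with the replicate number, 11.5% with the day and 19.0% with neither. Replicate 1, whose library names carry an earlier year than those of replicates 2 and 3, stood apart on both days: the summed RPKM of 35 type I interferon-stimulated genes was 12091 in replicate 1 against 2108 and 1305 in replicates 2 and 3 on day 3, and 6378 against 1058 and 1507 on day 6. Day 6 replicate 3 stood apart in another way, with a summed RPKM of 50 cell cycle genes of 271, where the other 5 libraries had 460 to 1118. Sequencing depth, estimated from the steps of low values, was 30.1 to 39.4 M reads in the 6 libraries, so that 0.1 RPKM or less stands for 3 reads of a 1 kb transcript.

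No gene passed the test between the days. Limma on log2(RPKM + 1) without pairing called 0 genes higher and 0 lower with a fold change over 1.5 and an adjusted p below 0.05, which is 0% of 9540 in each direction, and 93 genes had an unadjusted p under 0.05. With the replicate number as a block, which compares day 6 with day 3 of the same number, it again called 0 higher and 0 lower (0%), with 471 genes at an unadjusted p under 0.05 and a lowest adjusted p of 0.223. Fitting the WT libraries of the same days along with the block called 1 gene in each direction: Ltc4s was higher on day 6 (adjusted p = 0.0218) and Cbr2 was lower (adjusted p = 0.0200). Without the 2 libraries of replicate 1, limma called 0 genes, with 294 at an unadjusted p under 0.05. An exact permutation test of a single gene could not go below p = 0.1 with 3 libraries against 3.

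The rest of the text therefore describes levels, library by library, and counts of genes by 3 plain criteria. In 109 genes (1.14%) every day 6 library was above every day 3 library, and in 314 (3.29%) every day 6 library was below. In 791 genes (8.29%) day 6 was higher within all 3 replicate numbers, here called pairs, and in 1693 (17.7%) it was lower in all 3. With more than 1.5-fold in every pair, on RPKM + 1, 52 genes (0.545%) were higher and 47 (0.493%) were lower. All of these counts include genes above the limit on 1 day alone, whose means had to differ. The median log2 difference of all fitted genes was −0.07, and it was 0.03, −0.03 and −0.20 in pairs 1, 2 and 3. The balance of the non-overlapping genes turned with the scaling: after centring each library on its median there were 205 higher and 167 lower, and after quantile normalization 179 higher and 192 lower. The counts above 1.5-fold in all pairs depended less on it, at 58 higher and 46 lower after centring.

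**Figure D1:**
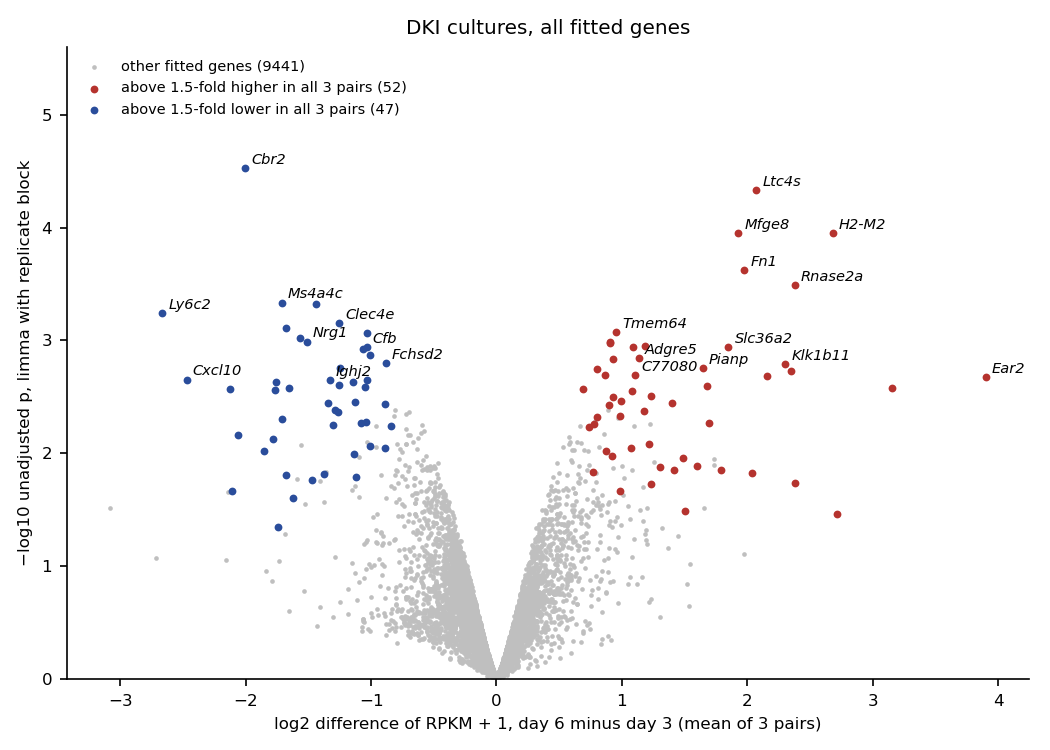
Each point is 1 of the 9540 fitted genes in DKI cultures: the horizontal axis is the log2 difference of RPKM + 1 between day 6 and day 3, and the vertical axis is −log10 of the unadjusted limma p with the replicate block. Red points are the 52 genes above 1.5-fold higher in all 3 pairs and blue points the 47 lower; Cbr2 and Ltc4s have the smallest p, and no point passes after adjustment over all genes.

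Among genes whose 2 days did not overlap, the 15 with the smallest p on the higher side included Cd83, Fscn1 and Nr4a3, which were 3 of the 28 fitted moDC genes and the only ones of that list without overlap on this side, against 1.14% of all fitted genes, a share that depends on the scaling as given above. Cd83, a surface protein of activated dendritic cells, was at 8.50, 4.52 and 5.55 RPKM on day 3, against 24.6, 11.2 and 35.3 RPKM on day 6 in replicates 1, 2 and 3. Its lowest day 6 library was above its highest day 3 library, and the log2 difference was 1.68 ± 0.43 (SE, n = 3 a day). Fscn1, the actin-bundling protein fascin, was at 9.001, 4.70 and 0.421 RPKM on day 3, against 25.9, 13.2 and 29.1 RPKM on day 6. Cacnb3, a calcium channel subunit, was at 2.76, 1.53 and 0.751 RPKM and then at 6.77, 3.27 and 8.61 RPKM, with replicate 3 lowest on day 3 and highest on day 6. Replicate 3 held that place for Fscn1 and for Ccr7 too. Ccr7, the receptor that guides dendritic cells to lymph nodes, overlapped between the days, at 16.9, 4.36 and 0.601 RPKM on day 3, against 33.9, 16.5 and 70.9 RPKM on day 6, but was higher in each pair, with log2 differences of 0.96, 1.71 and 5.49. Nr4a3, a nuclear receptor of the immediate early group, was at 5.66, 2.79 and 0.988 RPKM on day 3, against 9.84, 8.16 and 10.1 RPKM on day 6. In DKI monocytes before culture, Cd83 was at 56.4 to 127 RPKM and Nr4a3 at 14.9 to 18.5 RPKM, above every DKI library of days 3 and 6. Fscn1 and Ccr7 were low there, at 0.152 to 0.309 RPKM and 0.282 to 0.469 RPKM. Sema7a, a membrane-anchored semaphorin, was at 0.412 to 1.85 RPKM on day 3, against 2.46 to 4.39 RPKM on day 6.

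For Cd83, Fscn1 and Ccr7, every DKI library was below every WT library of the same day. Fscn1 was at 106, 271 and 26.7 RPKM in WT libraries on day 3, against 368, 173 and 377 RPKM on day 6, so the highest DKI library of day 6 was near the lowest WT library of day 3. Cd83 was at 44.3 to 129.5 RPKM on day 3 and 110.3 to 281 RPKM on day 6 in WT, and Ccr7 at 60.8 to 229 RPKM and 296 to 824 RPKM. The difference of the day 6 against day 3 change between DKI and WT was 0.32 ± 0.72 on the log2 scale (SE) for Cd83, 0.75 ± 1.20 for Fscn1 and 0.70 ± 1.19 for Ccr7, all with an adjusted p of 1 in limma over 9985 genes. These intervals are wide enough to hold a change of either sign.

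The gene with the smallest unadjusted p without pairing was C77080, a protein-coding gene on chromosome 4 whose levels rank by day rather than by replicate. It was at 9.90, 9.77 and 8.41 RPKM on day 3, against 17.4, 21.7 and 25.1 RPKM on day 6, a log2 difference of 1.1 ± 0.18 (SE; unadjusted p = 0.000682, adjusted p = 0.999 by limma). In WT cultures it was at 0.284 to 0.815 RPKM on day 3, against 0.523 to 1.83 RPKM on day 6. It was therefore low in WT MDCs on both days and present in DKI MDCs already on day 3. Serpinb6a, an inhibitor of intracellular serine proteases, was at 54.4, 50.7 and 33.4 RPKM on day 3, against 85.4, 79.2 and 94.9 RPKM on day 6, and its neighbour in the family Serpinb6b was at 3.16, 2.72 and 0.38 RPKM and then at 10.4, 6.40 and 7.55 RPKM. Reads shared between such near copies could have been split by the counting, which is not described in detail. Plxdc1, a plexin domain membrane protein, was at 2.42 to 3.76 RPKM on day 3 and 6.09 to 7.74 RPKM on day 6, and Pianp, a ligand of the receptor PILRA, at 0.957 to 2.17 RPKM and 3.24 to 11.7 RPKM. Cd5l, a secreted scavenger receptor protein of tissue macrophages, was at 1.17, 0.910 and 2.47 RPKM on day 3, against 5.64, 5.30 and 29.9 RPKM on day 6. The remaining 4 of the 15, P4ha2, Ceacam15, Slc27a3 and Adcy6, were low, with 10.1 RPKM as the highest level in any of the 6 libraries. Ceacam15 was near 0 on day 3, at 0.0231 to 0.237 RPKM, and at 3.13, 1.09 and 10.1 RPKM on day 6. Adcy6, Ceacam15, Cacnb3, Cd5l, Pianp and Sema7a were above the limit on day 6 alone, so that their means had to be higher then.

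Because STAT5 binds GAS motifs, the promoters of the 30 genes named by this criterion (15 in each direction) were searched for TTCNNNGAA, from 250 bases before to 50 bases after each RefSeq start on GRCm38.p6, the mm10 build. The motif reads the same on both strands. Promoters were found for 12 of the higher and 12 of the lower genes. At least 1 promoter of C77080, Serpinb6a and Abracl held the motif, that is 2 of 12 higher and 1 of 12 lower genes, and 8.30% of all 32851 mouse promoters in the table hold it (8.32% of the 7702 fitted genes with a promoter, counting a gene once). The cell cycle motif CHR (TTTGAA, either strand, which can overlap a GAS motif) was found in 3 higher and 1 lower gene, against 17.9% of all promoters and 14.1% of the fitted genes with one, and the AP-1 motif TGANTCA in 1 and 1, against 7.81% and 6.35%. A match says that the letters are there, not that STAT5 binds. All genes searched were chosen for a day difference, so a motif beside such a difference adds nothing to it. C77080 had 4 RefSeq promoters and Serpinb6a 2, and their promoters not shown here hold no GAS motif. Which start the cells used was not tested. Of the 4 promoters with a GAS motif, 1 a gene is shown 5′ to 3′ on the strand of the gene, with each motif in capitals.
C77080, chr4:129261355-129261654, minus strand, motif at −24 from the start: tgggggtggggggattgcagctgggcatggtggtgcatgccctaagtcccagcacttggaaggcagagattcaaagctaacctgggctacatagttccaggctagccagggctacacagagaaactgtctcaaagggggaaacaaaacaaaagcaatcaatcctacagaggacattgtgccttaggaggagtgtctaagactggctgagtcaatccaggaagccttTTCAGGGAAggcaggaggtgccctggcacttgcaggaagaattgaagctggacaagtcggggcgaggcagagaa
Serpinb6a, chr13:34002745-34003044, minus strand, 2 motifs, the first at −77: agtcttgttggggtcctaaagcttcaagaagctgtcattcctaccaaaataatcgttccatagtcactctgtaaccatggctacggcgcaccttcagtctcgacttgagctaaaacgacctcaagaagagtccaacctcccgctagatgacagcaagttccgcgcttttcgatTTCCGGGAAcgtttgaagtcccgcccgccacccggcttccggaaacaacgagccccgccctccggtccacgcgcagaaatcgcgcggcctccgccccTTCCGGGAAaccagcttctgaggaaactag
Abracl, chr10:18023203-18023502, minus strand, motif at −85: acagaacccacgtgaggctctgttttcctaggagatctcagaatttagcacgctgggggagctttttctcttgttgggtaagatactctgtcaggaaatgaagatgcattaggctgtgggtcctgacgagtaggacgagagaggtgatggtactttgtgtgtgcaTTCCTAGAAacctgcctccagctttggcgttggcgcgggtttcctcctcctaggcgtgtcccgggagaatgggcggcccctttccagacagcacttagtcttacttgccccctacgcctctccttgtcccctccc
The promoter not shown belongs to a second start of Abracl, at chr10:18023041-18023340 on the minus strand. It overlaps the one shown, holds the same TTCCTAGAA and has TTCCGTGAA as its other GAS motif, so that Serpinb6a and Abracl each had a promoter with 2 motifs.

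**Figure D2:**
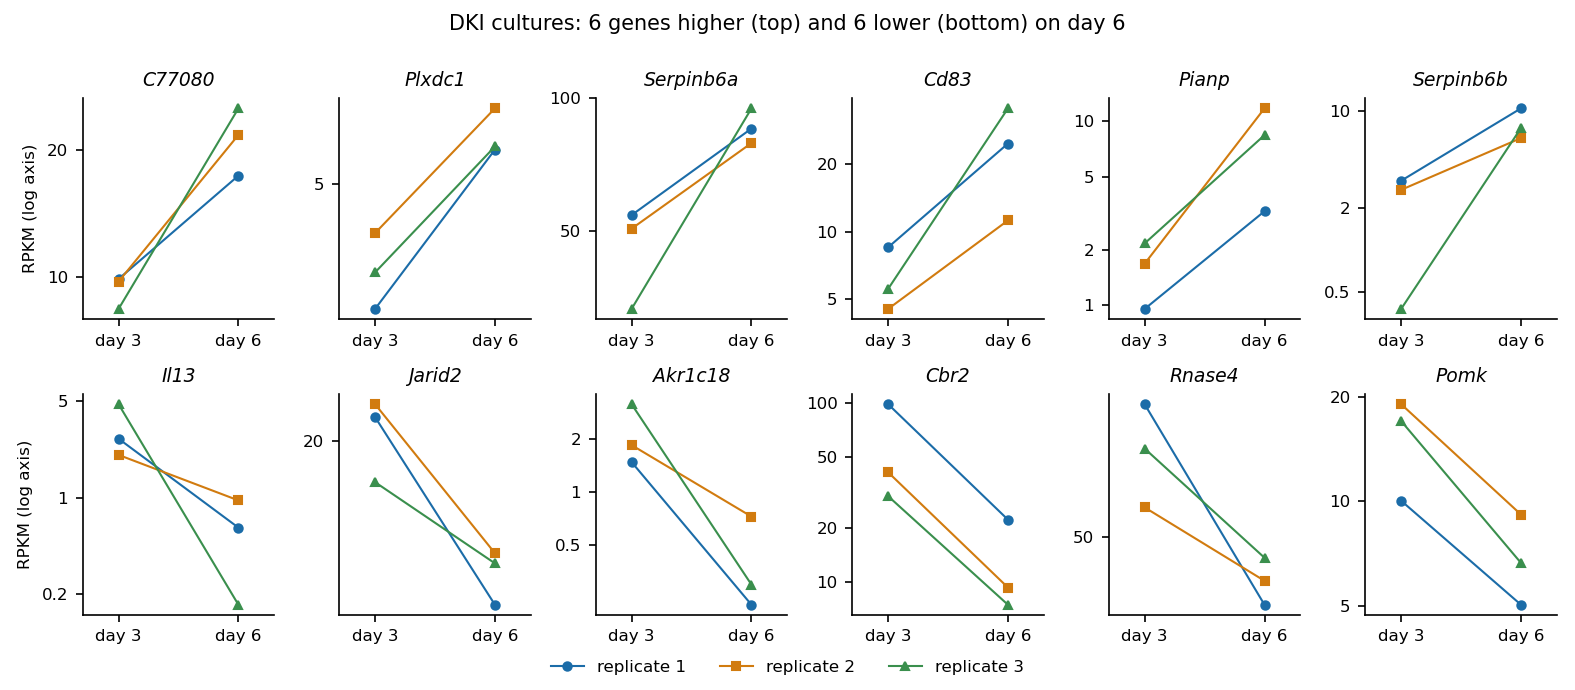
Levels in the 6 DKI libraries (RPKM, log axis, each panel with its own range) of the 6 genes with the smallest limma p on each side among those whose days did not overlap; lines join libraries with the same replicate number. C77080 goes from 8.41 to 9.90 RPKM on day 3 to 17.4 to 25.1 RPKM on day 6, and Cbr2 from 30.2 to 98.6 RPKM to 7.44 to 22.3 RPKM.

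Il1b and Il13 were the cytokine genes among the 15 named genes that were below their day 3 range on day 6. In the list of 23 fitted cytokine and growth factor genes, which does not hold Il13, 1 gene (Il1b) was below its day 3 range and 2 were above. Il1b, the gene of the cytokine IL-1β, was at 116, 20.8 and 31.4 RPKM on day 3, against 14.3, 9.05 and 5.50 RPKM on day 6, with log2 differences of −2.94, −1.12 and −2.31 in the 3 pairs. Il13 was at 2.68, 2.04 and 4.76 RPKM and then at 0.607, 0.956 and 0.168 RPKM. It was above the limit on day 3 alone, so that its mean had to be lower on day 6. Both cytokines were also lower on day 6 in all 3 WT pairs, where Il1b was at 25.9, 27.1 and 10.96 RPKM and then at 19.8, 10.3 and 7.86 RPKM. Cbr2, a carbonyl reductase, was at 98.6, 41.0 and 30.2 RPKM on day 3, against 22.3, 9.29 and 7.44 RPKM on day 6. Its 3 pairs differed by almost the same amount, −2.10, −2.03 and −1.88 on the log2 scale, and it had the smallest p with the block (2.96e-05, adjusted p = 0.223 by limma). In WT, Cbr2 was at 0 to 0.944 RPKM on these days, and in DKI monocytes before culture at 1.86 to 3.38 RPKM, so among the DKI groups its level was highest on day 3.

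The other lower genes had varied functions. Ass1, which makes argininosuccinate for arginine synthesis, was at 45.6, 58.6 and 36.5 RPKM on day 3, against 27.5, 27.3 and 11.4 RPKM on day 6, and it was lower in all WT pairs as well. Jarid2, a partner of the Polycomb complex PRC2, was at 21.6, 22.6 and 17.4 RPKM and then at 11.5, 13.7 and 13.2 RPKM. Its levels varied little within a day (SD 2.77 and 1.15 RPKM, n = 3). Rnase4, a secreted ribonuclease, was at 84.2, 56.2 and 70.8 RPKM on day 3, against 38.5, 42.2 and 46.2 RPKM on day 6. Pomk, a kinase that acts on dystroglycan sugars, was at 10.03, 19.03 and 17.02 RPKM and then at 5.03, 9.15 and 6.63 RPKM. Among the rest, Akr1c18 (a hydroxysteroid dehydrogenase), Smpdl3b (a membrane phosphodiesterase), Mfsd1 (a lysosomal transporter), Arhgef10l (a guanine nucleotide exchange factor), Plekhg1, Abracl, Ankrd66 and Ighg1 had log2 differences between −1.56 (Ighg1) and −0.61 (Abracl). Akr1c18 and Ankrd66 were among those above the limit on day 3 alone, so that their means had to be lower on day 6.

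A further set was consistent within pairs while the libraries of the 2 days overlapped, since the replicates were at different levels. These genes were chosen after their values were seen, as those above 1.5-fold in all 3 pairs. Ltc4s, leukotriene C4 synthase, was at 2.68, 22.0 and 13.7 RPKM on day 3, against 16.2, 80.2 and 64.6 RPKM on day 6, with log2 differences of 2.23, 1.82 and 2.16. Replicate 1 on day 6 lay between replicates 2 and 3 of day 3. Mfge8, which links dying cells to integrins on phagocytes, was at 117, 646 and 217 RPKM on day 3, against 461, 2622 and 756 RPKM on day 6, with log2 differences of 1.97, 2.02 and 1.80. Fn1, fibronectin, was at 15.7, 147 and 628 RPKM and then at 68.0, 445 and 3087 RPKM. H2-M2, a nonclassical MHC class I gene, was at 0.649, 10.1 and 2.40 RPKM and then at 10.02, 47.8 and 29.4 RPKM. Replicate 1 was lowest on both days for all 4 of these genes.

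Ear2 and Chil3, a ribonuclease and a chitinase-like gene that eosinophils and alternatively activated macrophages are known to express, were above 1.5-fold higher in all 3 pairs. Ear2 had a log2 difference of 3.90 ± 1.21 (SE) and was at 0.355, 0.568 and 21.8 RPKM on day 3, against 18.9, 73.9 and 107 RPKM on day 6. The related Rnase2a was at 1.104, 0.919 and 29.6 RPKM and then at 16.5, 7.68 and 114 RPKM. Ear2 was also higher in all 3 WT pairs, at 4.16, 2.93 and 1.52 RPKM on day 3 and 33.8, 39.2 and 115 RPKM on day 6, a WT log2 difference of 3.88. Chil3, the chitinase-like protein Ym1, was at 19.8, 50.4 and 269 RPKM on day 3, against 118, 235 and 7264 RPKM on day 6, a log2 difference of 3.15 ± 1.70 (SE). Day 6 replicate 3 stood far above the other 5 libraries, and without it the log2 difference was 1.34. In DKI monocytes before culture, Chil3 was at 406 to 1581 RPKM, Fn1 at 925 to 1076 RPKM and Ear2 at 10.5 to 44.1 RPKM, so that these 3 genes were expressed before GM-CSF was added. Spp1, osteopontin, was at 606, 1201 and 306 RPKM and then at 1389, 2192 and 2028 RPKM, without overlap between the days. Of 10 mast cell, basophil and eosinophil markers, Fcer1a, Cma1 and Mcpt4 were under 0.1 RPKM in all 6 libraries. Others were present: Prg2 was at 21.7, 27.1 and 2.64 RPKM on day 3, against 35.2, 4.13 and 0.276 RPKM on day 6. Gata2 was at 6.04 to 25.2 RPKM and Cpa3 at 2.13 to 14.8 RPKM over the 6 libraries. The summed level of the list was 33.8 to 54.3 RPKM on day 3 and 19.8 to 59.1 RPKM on day 6. The part of mast cells, basophils and eosinophils in the ribonuclease values was not tested.

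On the lower side, 8 genes above 1.5-fold in all 3 pairs are described, among them 2 of the 24 fitted classical monocyte genes (Ly6c2 and Plac8) and 2 of the 19 Toll-like receptor and C-type lectin genes (Clec4e and Tlr2), against 0.493% of all fitted genes. The 8 were picked by name from this set after their values were seen. Another 2 classical monocyte genes, Fn1 and Chil3, were above 1.5-fold higher in all pairs. Ly6c2, the Ly6C antigen by which the starting monocytes are recognised, was at 775, 49.5 and 73.8 RPKM on day 3, against 158, 10.5 and 5.30 RPKM on day 6, and at 1104 to 1579 RPKM in DKI monocytes before culture. Replicate 1 was higher on day 6 than replicates 2 and 3 were on day 3. Plac8 showed the same order, at 222, 23.1 and 4.01 RPKM and then at 116, 1.80 and 1.83 RPKM. Clec4e, the C-type lectin Mincle, was at 259, 46.9 and 67.0 RPKM on day 3, against 112, 15.6 and 32.2 RPKM on day 6. Tlr2, the receptor for bacterial lipoproteins, was at 212, 81.9 and 98.5 RPKM and then at 125, 35.4 and 26.5 RPKM. Gpr84 and Fpr2, receptors for fatty acids and formyl peptides, Acod1, which makes itaconate, and Cxcl10, an interferon-induced chemokine, were lower in each pair too, with mean log2 differences of −2.06, −1.86, −1.66 and −2.47. Replicate 1 had the highest level of all 8 genes on both days.

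**Figure D3:**
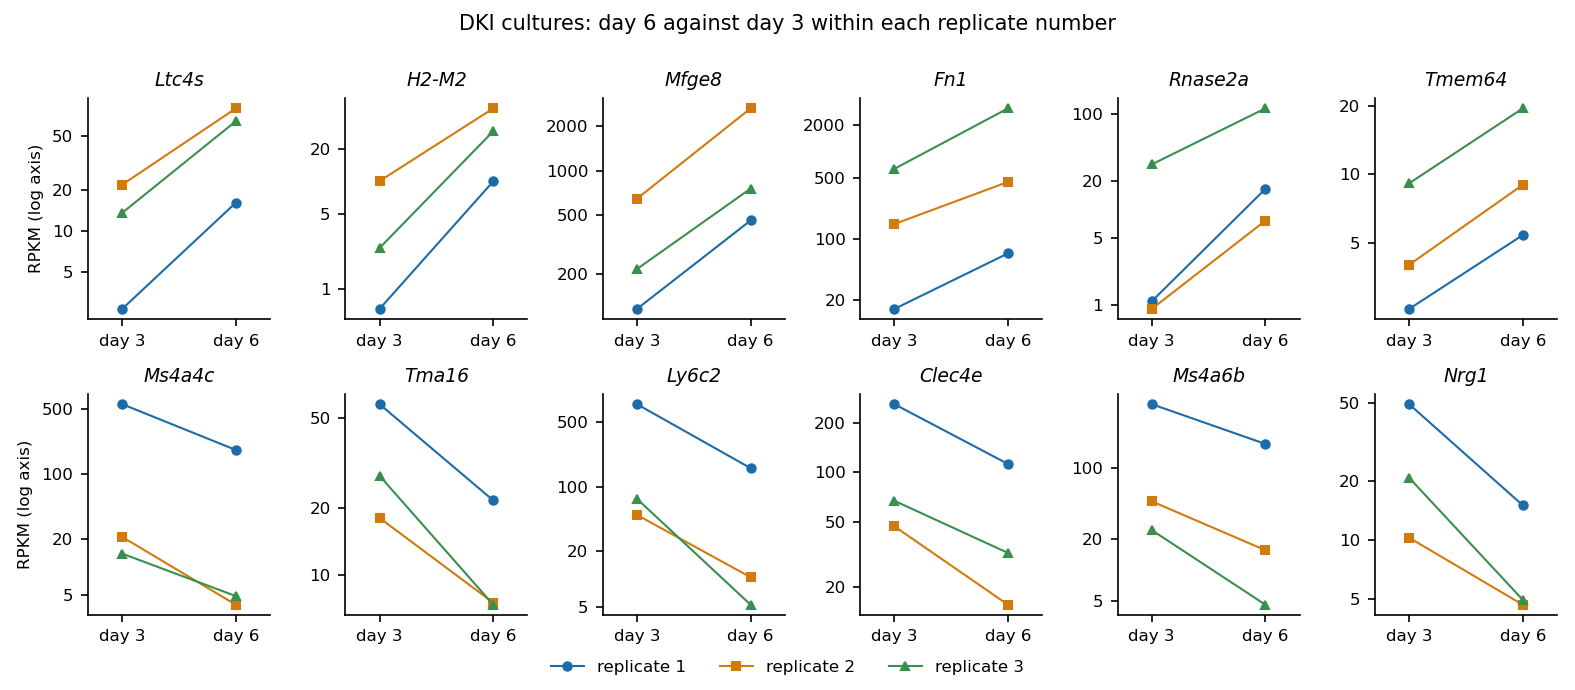
Levels in the 6 DKI libraries (RPKM, log axis, each panel with its own range) of the 6 genes on each side with the smallest p of limma with the replicate block among those above 1.5-fold in all pairs and not in the set without overlap; lines join libraries with the same replicate number. The 3 lines of Ltc4s run nearly parallel, from 2.68, 22.0 and 13.7 RPKM to 16.2, 80.2 and 64.6 RPKM, and those of Ms4a4c run down from 559, 20.9 and 13.8 RPKM.

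The Ms4a genes, which encode tetraspan membrane proteins, and the immunoglobulin genes were taken as families, likewise after their values were seen. The shares of all fitted genes beside them are therefore for scale only. Other families were tallied in the same way. Above the limit on both days, 5 of 7 Clec4 and 2 of 3 Trim30 genes were lower in all pairs and 0 higher. Of 8 Serpinb genes, 3 were lower and 3 higher, and 2 of 2 Ear and Rnase2 genes were higher. Of 11 fitted Ms4a genes, 2 were above the limit on day 3 alone, so that their mean had to be lower on day 6. Of the 9 above the limit on both days, 7 were lower in all 3 pairs and 1 higher, against 17.7% lower and 8.29% higher among all fitted genes. Ms4a4c was at 559, 20.9 and 13.8 RPKM on day 3, against 179, 3.88 and 4.81 RPKM on day 6, Ms4a6b at 422, 47.1 and 24.6 RPKM and then at 171, 15.6 and 4.55 RPKM, and Ms4a4a at 1378, 424 and 375 RPKM and then at 735, 144 and 154 RPKM. Of 23 fitted immunoglobulin constant, joining and variable genes, 9 were above the limit on day 3 alone and 0 on day 6 alone. Of the 14 above it on both days, 9 were lower in all pairs and 0 higher, against the same 17.7% and 8.29%. Igkc, the kappa constant region, was at 108, 34.9 and 19.8 RPKM on day 3, against 60.4, 20.7 and 0.632 RPKM on day 6, against 799 to 3703 RPKM in DKI monocytes before culture. Day 6 replicate 3 was lowest. Of the 9 B cell and plasma cell markers, Ms4a1, Pax5 and Ebf1 were among those under 0.1 RPKM in all 6 libraries, and Jchain, which joins antibody chains in plasma cells, was at 4.20, 1.498 and 1.31 RPKM and then at 1.11, 0.585 and 0.0962 RPKM. The part of plasma cells in the immunoglobulin values was not tested.

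The lists of genes with a common function were compared next, by their median log2 difference and by how many members moved the same way in all 3 pairs, against 8.29% higher and 17.7% lower among all fitted genes. Neither fit of the 6 libraries called a member of any of the 26 lists. The shares and list counts were not recomputed after centring, so counts of small differences in 1 direction may depend on the scaling. Of 28 moDC genes above the limit, 11 were higher in all pairs and 2 lower, with a median of 0.47 (0.66, 0.44 and 0.22 in pairs 1 to 3). The WT median of these moDC genes was 0.32. Of 21 alternative activation and tissue repair genes, 8 were higher and 3 lower (median 0.42), with pair medians of 0.40, −0.03 and 0.98, so that pair 2 did not go with the others. Lysosomal hydrolase and proton pump genes differed little but often in the same direction, 15 of 47 higher and 3 lower with a median of 0.08. Psap, the precursor of the saposins, was at 4424, 2981 and 5787 RPKM and then at 6743, 4147 and 8365 RPKM. General macrophage genes were divided, 6 of 32 higher and 4 lower (median −0.01). Csf1r, the receptor of the macrophage growth factor M-CSF, was lower in each pair, at 905, 461 and 585 RPKM and then at 780, 364 and 261 RPKM. The directions were divided as well in the 13 MHC class II genes, of which 0 kept 1 direction: their medians were 0.44, 0.87 and −0.61 in the 3 pairs. H2-Aa was at 602, 2206 and 2875 RPKM on day 3, against 867, 4059 and 1881 RPKM on day 6.

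In the lists of NF-κB feedback, of Toll-like receptors and C-type lectins and of classical monocytes, the median was below 0 in every pair, while single members went the other way. Of 17 NF-κB subunit and feedback genes, 11 were lower in all pairs and 1 higher (median −0.27). Nfkbia, the inhibitor IκBα that NF-κB itself induces, was at 145, 79.0 and 97.4 RPKM on day 3, against 109, 50.3 and 72.8 RPKM on day 6. Of 19 Toll-like receptor and C-type lectin genes, 9 were lower and 1 higher (median −0.34), and of 24 classical monocyte genes 8 were lower and 3 higher (median −0.38). Over the same genes, the WT median was 0.22 for NF-κB feedback, −0.37 for Toll-like receptors and lectins and −0.27 for classical monocytes. Of 35 type I interferon-stimulated genes, 6 were lower and 0 higher in all pairs, which is no larger a share than the 17.7% of all fitted genes. Pairs 1 and 2 had medians of −0.98 and −0.89, and pair 3 of 0.40. Ifitm3, an antiviral membrane protein, was at 2284, 516 and 656 RPKM on day 3, against 1542, 238 and 635 RPKM on day 6.

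In 3 other lists, those of the cell cycle, of cholesterol and fatty acid synthesis and of chemokines, the median came mostly from 1 pair. The 50 cell cycle and DNA replication genes had a median of −0.62, made of 0.54, −0.17 and −2.32 in pairs 1, 2 and 3, and 1 member was lower and 1 higher in every pair. The lower one, Mki67, the proliferation antigen Ki-67, was at 22.4, 39.6 and 35.1 RPKM on day 3 and 9.93, 30.8 and 1.98 RPKM on day 6. The 29 cholesterol and fatty acid synthesis genes had a median of −0.49, made of −0.40, 0.68 and −1.74, and none kept 1 direction. In both lists the lowest median was that of pair 3. The 19 chemokine genes had a median of −0.39, made of 0.23, −1.50 and 0.19, so that pair 2 alone was below 0, and 2 were higher and 3 lower in all pairs. The granulocyte precursor and neutrophil markers moved by pair as well: the sum of 17 markers was 2551, 3906 and 1749 RPKM on day 3 and 3971, 1055 and 550 RPKM on day 6, higher in pair 1 and lower in pairs 2 and 3. S100a8, a calcium-binding protein of neutrophils and monocytes, was at 684, 1286.5 and 272 RPKM and then at 1203, 148 and 14.2 RPKM. The part of residual granulocytes in the lists above was not tested.

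**Figure D4:**
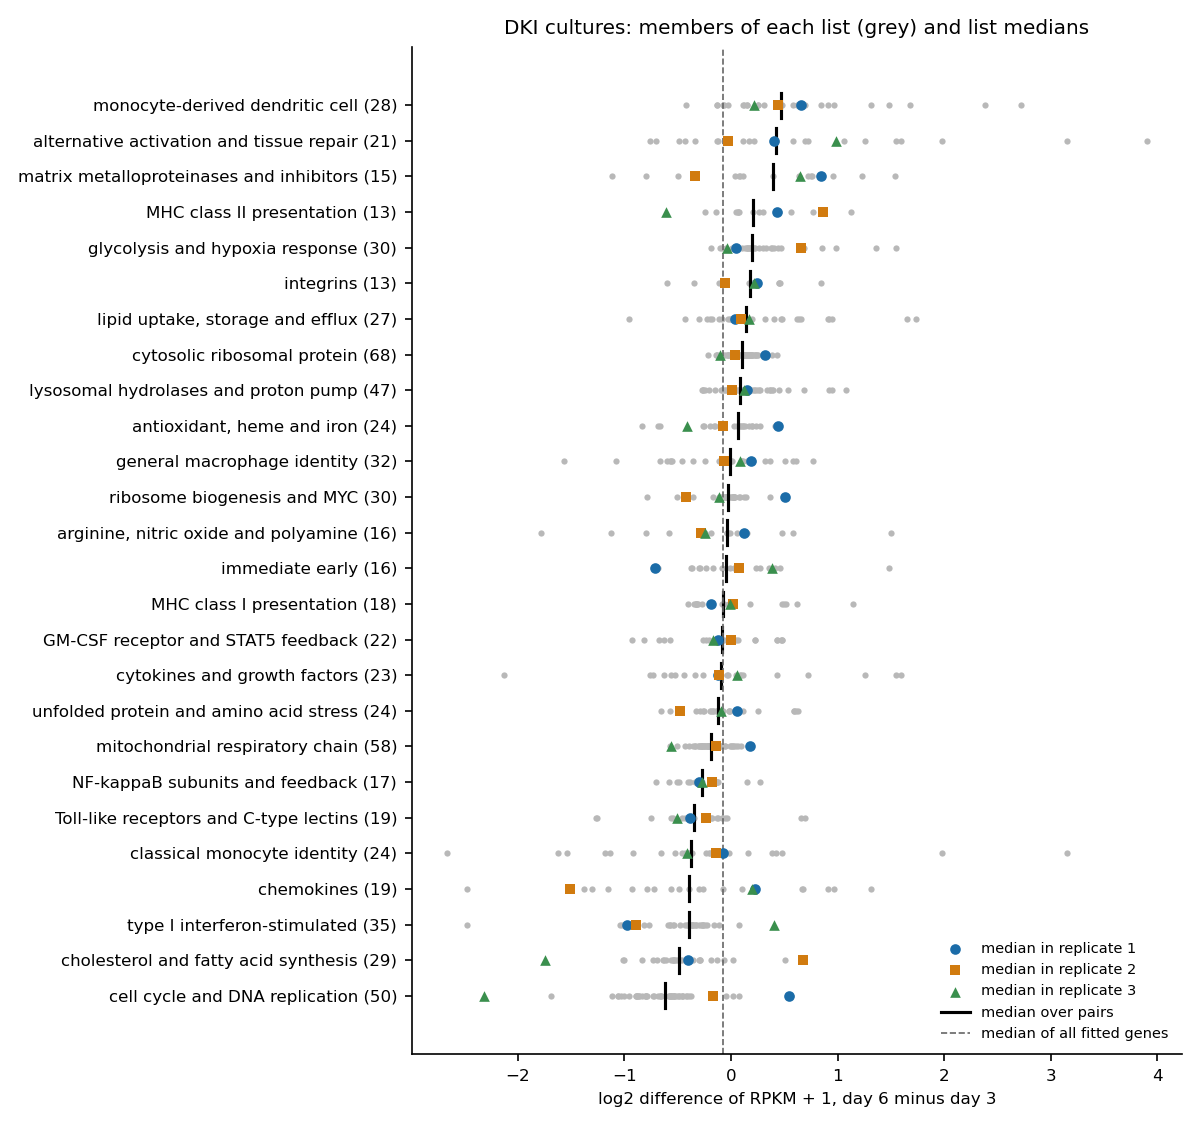
Each row is 1 of the 26 lists (number of genes above the limit in brackets), each grey point is the log2 difference of RPKM + 1 of 1 gene between day 6 and day 3 over the 6 DKI libraries, coloured symbols are the list medians in replicates 1, 2 and 3, and the black bar is the median of the mean differences. The 3 symbols lie between −0.30 and −0.18 for NF-κB feedback and spread from −2.32 to 0.54 for the cell cycle.

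The remaining lists had medians between −0.19 and 0.39. Of 68 cytosolic ribosomal protein genes 11 were higher and 2 lower in all pairs (median 0.11), of 58 mitochondrial respiratory chain genes 0 were higher and 6 lower (−0.19), of 30 glycolysis and hypoxia genes 4 were higher and 0 lower (0.20), and of 27 lipid uptake, storage and efflux genes 7 were higher and 2 lower (0.14). Lpl, lipoprotein lipase, was higher in each pair, at 139, 1780 and 1146 RPKM on day 3 and 443, 1948 and 2377 RPKM on day 6. Of 15 matrix metalloproteinases and inhibitors 2 were higher and 3 lower (0.39), and Mmp12, macrophage elastase, was at 463, 5498 and 2170 RPKM and then at 1694, 5090 and 4723 RPKM. Cytokines and growth factors (23 genes, median −0.09), immediate early genes (16, −0.05), antioxidant, heme and iron genes (24, 0.07), integrins (13, 0.18), stress genes (24, −0.12), MHC class I genes (18, −0.08), ribosome biogenesis genes (30, −0.03) and arginine and polyamine genes (16, −0.04) had log2 differences of both signs. Counted over all pairs, the immediate early genes had 2 higher and 0 lower, the ribosome biogenesis genes 0 higher and 2 lower, and each of the others at least 1 in both directions.

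Of the chains of the GM-CSF receptor, Csf2ra kept 1 direction over the pairs and Csf2rb did not. Csf2ra, its ligand-binding chain, was at 70.7, 161 and 153 RPKM on day 3, against 107, 223 and 196 RPKM on day 6, higher in each pair, by 0.59, 0.46 and 0.36 on the log2 scale. Csf2rb, the signalling chain, was at 271, 568 and 487 RPKM and then at 277, 457 and 360 RPKM, with differences of 0.04, −0.31 and −0.43. Of the 22 genes of this list, which also holds the feedback inhibitors of STAT5, 2 were higher in all pairs and 4 lower, with a median of −0.08. The moDC chemokine genes had no common order of the days: Ccl17 was at 12.5, 42.2 and 68.0 RPKM on day 3, against 86.4, 14.2 and 24.7 RPKM on day 6, and Ccl22 at 50.9, 58.7 and 19.2 RPKM and then at 154, 57.0 and 107 RPKM. Among macrophage genes, Stab1, a scavenger receptor, was lower in each pair, at 182, 95.1 and 77.1 RPKM and then at 122, 26.6 and 14.8 RPKM, and Mrc1, the mannose receptor, was at 417, 345 and 276 RPKM and then at 419, 275 and 487 RPKM. Mertk was at 21.7 to 64.2 RPKM on day 3 and 24.5 to 54.8 RPKM on day 6. Irf4 and Batf3, transcription factors of dendritic cells, had log2 differences of 0.47 ± 0.71 and 0.65 ± 0.57 (SE). By pair, Irf4 differed by 1.21, 0.45 and −0.24, and Batf3 was higher in each, by 1.15, 0.67 and 0.14. Ikzf4 was under the limit, at 0.278 to 0.511 RPKM on day 3 and 0.632 to 1.67 RPKM on day 6.

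The WT cultures of the same days are other libraries, but they carry the same replicate numbers and are not independent of them. Over the 9540 genes, the deviations of same-numbered DKI and WT libraries from their group means correlated at 0.832 to 0.946 in monocytes before culture, at 0.166 to 0.379 on day 3 and at 0.358 to 0.423 on day 6, and those of the changes between the days at 0.0275 to 0.316. The part of the shared replicate numbers in the counts that follow was not tested. Of the 52 genes above 1.5-fold higher in all DKI pairs, 33 (63.5%) were higher in all 3 WT pairs as well and 1 was lower, against 15.5% higher among all 9540 genes. Of the 47 lower genes, 10 (21.3%) were lower in all WT pairs and 1 was higher, against 24.6% lower among all genes. The WT median log2 difference was 0.82 for the first set and −0.29 for the second, where DKI had 1.22 and −1.33, but these genes were chosen for large DKI values, so the sizes in the 2 genotypes are not set against each other. Klk1b11, a kallikrein, was higher in both genotypes, at 4.79, 2.77 and 46.7 RPKM and then 21.0, 36.5 and 151 RPKM in DKI, with a WT log2 difference of 2.93. Mfge8 was not: in WT it was at 1426, 3279 and 1589 RPKM on day 3, against 1299, 4888 and 674 RPKM on day 6. Limma on the interaction of genotype and day called 0 of 9985 genes, with 89 at an unadjusted p under 0.05, and with the replicate block it called 1, Cfb.

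**Figure D5:**
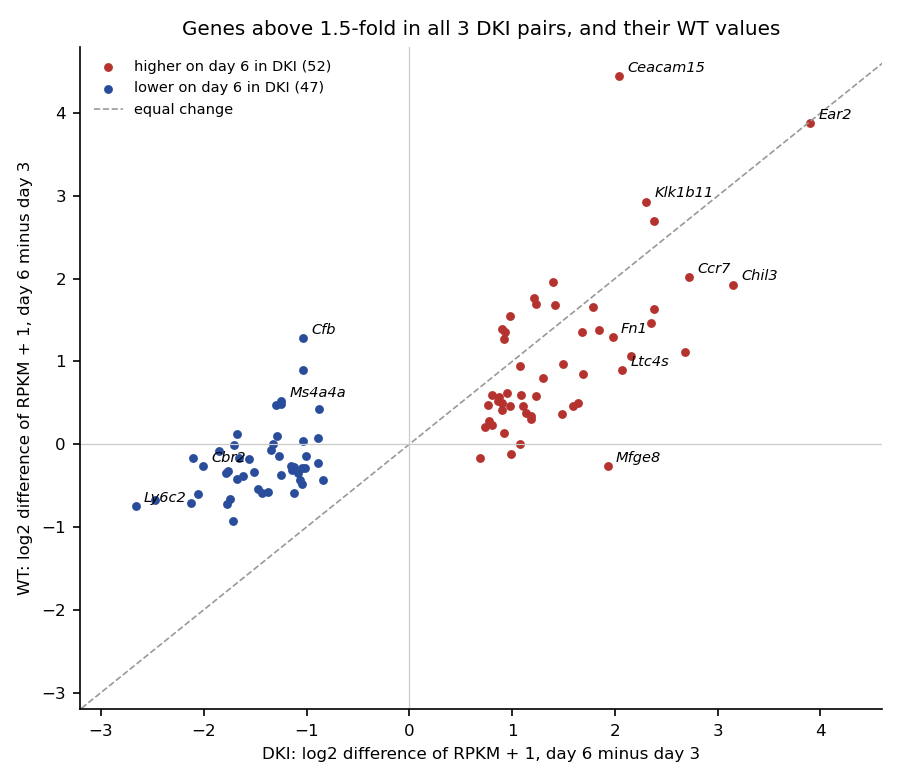
Each point is 1 of the 99 genes above 1.5-fold in all 3 DKI pairs, with its log2 difference of RPKM + 1 between day 6 and day 3 in DKI (horizontal) and in WT (vertical); red points were higher and blue points lower in DKI, and the dashed line marks equal differences. Ear2 lies on the line at 3.90 and 3.88, Mfge8 below 0 in WT at −0.26, and Cfb at −1.04 in DKI and 1.28 in WT.

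Cfb, complement factor B, was the only gene called by the interaction of genotype and day, and only with the replicate block. It was at 914, 22.9 and 24.5 RPKM in DKI on day 3, against 383, 11.1 and 12.9 RPKM on day 6, lower in each pair, with replicate 1 far above the others. In WT it was at 6.77, 8.04 and 4.47 RPKM on day 3, against 17.3, 21.6 and 12.2 RPKM on day 6, higher in each pair. The difference of the changes was −2.31 on the log2 scale, with an adjusted p of 0.0223 in limma with the replicate block and of 1 without it. Without DKI day 3 replicate 1, the mean DKI difference without pairing was 0.70 in place of −1.04. On day 6, DKI replicates 2 and 3 were close to the lowest WT library.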

How the data were processed

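RNA-seq was measured in 18 libraries, of which the 6 DKI libraries of days 3 and 6 were compared. Single-end reads were aligned to mm10 with Subread and counted on RefSeq genes with featureCounts (versions not given in the sources used here), after which the authors deposited RPKM values, 1 column a library, without further scaling between libraries. RefSeq symbols were found for 20082 of 20298 identifiers. Most genes of chromosome X were not analysed here. Some named genes are not reported here. Whole reads were not recovered, and depth (30.1 to 39.4 M reads) is an estimate from the lowest nonzero values of 916 receptor genes. RPKM values of near copies and overlapping genes are uncertain.

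Genes with a mean RPKM above 2 on either day were tested on log2(RPKM + 1) with limma 3.58.1 (lmFit, eBayes with trend, two-sided, Benjamini-Hochberg) in R 4.3.3, and called with a fold change over 1.5 and an adjusted p below 0.05. Fold changes on this scale understate those of low genes. Named genes were up to 15 a direction (called genes first, then those without overlap between days, above 1.5-fold and in 1 direction in all pairs, by p), the 2 most abundant genes of each list that the text uses, and genes the study discusses. Further genes, chosen after their values were seen, are those above 1.5-fold in all 3 pairs, the gene families, Mki67, S100a8 and Plac8. The members and lists were chosen with earlier results of these data known.

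Replicate numbers come from the labels. Deviations of same-numbered day 3 and day 6 libraries from their day means correlated at 0.743, 0.629 and 0.321 for replicates 1, 2 and 3. Those of different numbers correlated at −0.663 to 0.356, and centring on the mean of 3 libraries lowers such values. Replicate 3 thus lay within the range of different numbers. The numbers were taken as pairs throughout, but for replicate 3 these correlations do not set the pair apart. Nothing in the labels says that a number marks 1 animal, and p-values measure the spread between these libraries. Alternatives were other pseudocounts, filters, scalings, sample sets and the replicate block, and leaving out each library.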

Additional observations from a re-analysis of the deposited data

Results flagged for a closer look

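The day 6 against day 3 change of 5 named genes pointed in opposite directions in DKI and WT, within all 3 pairs of each genotype, or passed the test of the difference. The difference (DKI minus WT, log2 scale) was −2.31 for Cfb, which had an adjusted p of 0.0223 in limma with the replicate block and of 1 without it. Cfb in DKI replicate 1 was far above replicates 2 and 3 on both days, and all 3 pairs of each genotype agreed in direction. The difference was −1.97 for Rnase4 (84.2, 56.2 and 70.8 RPKM on day 3 and 38.5, 42.2 and 46.2 RPKM on day 6 in DKI; 2.93, 2.40 and 5.05 RPKM and then 4.38, 9.66 and 18.3 RPKM in WT), with an adjusted p of 1 without the block and 0.999 with it. It was −0.99 for Plekhg1, 0.86 for Grk5 and 1.31 for Mgl2, each with an adjusted p of 1 without the block and 0.999 with it by limma. Mgl2, a C-type lectin of dendritic cells, was at 162, 320 and 652 RPKM on day 3 and 415, 459 and 749 RPKM on day 6 in DKI.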

How the results depend on the processing

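No gene was called at an adjusted p under 0.05 by limma on the 6 libraries with pseudocount 0.1, without a filter (15802 genes), with a mean RPKM above 5 (7862 genes), with median centring or quantile normalization, without the trend, with 12 or 18 libraries sharing 1 spread, or without any 1 library (45 to 231 genes at an unadjusted p under 0.05) or replicate 1 of both days (294). The replicate block called 0 genes higher and 0 lower (471 at an unadjusted p under 0.05), and 0 and 0 with median centring (513). With 12 libraries and the replicate block it called 1 gene higher, Ltc4s, and 1 lower, Cbr2, and the interaction with the replicate block called 1 gene, Cfb. The replicate block changed no other call. The counts without overlap between days, compared after seeing the data, were 109 higher and 314 lower, and 205 and 167 with median centring, 179 and 192 with quantile normalization, and 377 and 408 without a filter. The precision is limited by 3 libraries a day and by the spread between replicate numbers, and low genes by the depth.

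Of 173 named genes, 44 changed direction under an alternative, none of them called in any fit of the 6 libraries. The log2 differences without each library in turn ranged as follows: Acly −0.14 to 0.18, Adgre1 −0.0919 to 0.0311, Apoe −0.81 to 1.42, B2m −0.22 to 0.80, Bst2 −1.18 to 0.69, Ccl17 −0.79 to 0.47, Ccl5 −0.52 to 3.34, Ccnd1 −0.61 to 0.83, Cd209a −0.73 to 0.66, Cd74 −0.40 to 0.40, Cd82 −0.28 to 0.23, Cd86 −0.22 to 0.65, Cfb −2.67 to 0.70, Cox4i1 −0.23 to 0.11, Fcgr1 −1.27 to 0.16, Fcgr4 −0.998 to 1.39, Fth1 −0.24 to 0.0497, Ftl1 −0.0726 to 0.56, Grn −0.33 to 0.37, H2-Aa −0.42 to 0.82, H2-Ab1 −0.26 to 0.73, H2-K1 −0.10 to 1.26, Icam1 −0.44 to 0.24, Ifitm3 −1.24 to 0.11, Irf4 −0.28 to 0.86, Itgam −0.00682 to 0.39, Itgb2 −0.0308 to 0.77, Lpl −0.17 to 1.71, Lyz2 −0.60 to 0.0762, Max −0.65 to 0.0401, Mertk −0.22 to 0.61, Mmp12 −0.00554 to 1.78, Mrc1 −0.00727 to 0.40, Nos2 −1.41 to 0.31, Npm1 −0.40 to 0.27, Oat −0.43 to 0.0119, Pcna −0.32 to 0.38, Pkm −0.48 to 0.18, Rpl8 −0.11 to 0.38, Rplp1 −0.15 to 0.35, S100a4 −1.55 to 0.29, Saa3 −3.78 to 0.0929, Scd2 −1.07 to 0.47, Stat5a −0.25 to 0.0644. Values that reversed without replicate 1 on both days were Ccnd1 −0.30, Cd74 −0.10, Cd82 0.0235, Grn 0.0655, Pcna −0.094, Rpl8 −0.091, Scd2 0.031. With median centring, with or without the replicate block, they were Adgre1 0.0505, Cd209a 0.0425, Cd82 0.00848, Cox4i1 0.0172, Grn 0.0448, Npm1 0.0584, and with quantile normalization Adgre1 0.0862, B2m −0.20, Cd74 −0.31, Cd82 0.0356, Cox4i1 0.0499, Lyz2 0.0917, Npm1 0.0462, Pkm 0.0194. Cfb and Saa3, both above 1.5-fold lower in all pairs, reversed to 0.70 and 0.0928 without day 3 replicate 1, which had their highest level.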
